A study of Mus musculus with 7 samples.

Results

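The genes described are 33 genes of the mouse tight junction: 20 claudins, 3 proteins of the occludin (MARVEL) family, 3 junctional adhesion molecules (JAMs) and 7 scaffold or adaptor proteins. They were chosen by name from 21631 protein-coding genes. What was measured at them was open chromatin, by ATAC-seq, in which a transposase cuts accessible DNA and stretches with many cuts are called as peaks. Peaks of 7 lists were merged into 326695 regions, of which 264687 lay inside or within 100 kb of a protein-coding gene and were assigned to the nearest gene body. Of these, 782 regions were assigned to 32 of the 33 genes, and Cldn20 had none. A region counts for a library where that library has a peak in it. The peak lists give positions only, so every value below is a count of regions or a width, and none is a level of accessibility or of expression.

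Each of the 7 groups was 1 library. The E13 stomach and E13 intestine libraries (E for embryonic day; E13.5 in the protocol) were made from ShhCre; R26YFP/+ embryos, in which a Cre from Shh switches on a yellow fluorescent reporter in the endodermal lining of the gut. Whole organs were digested with trypsin and 50000 sorted cells from a pool of 3 to 4 reporter-positive embryos were used. The wild-type E16 libraries (E16.5 in the protocol) came from epithelium of embryos of the same genotype: forestomach lining peeled after dispase and digested with collagenase, hindstomach lining released in 10 mM EDTA, and lining of the proximal small intestine (E16 intestine) and of the colon released in 5 mM EDTA. These 4 libraries are called wild-type here because their labels name no knockout, though they carry the Cre and the reporter. The seventh library is labelled Sox2 KO, E16 stomach. The sources used here do not give its alleles, the part of the stomach or how its cells were isolated. Since no group has a second library, there is no spread between replicates and no test of any difference between groups. Intervals are 95% Wilson intervals, which cover counting error only. They treat regions as independent, though 3 of the genes hold 42.6% of the member regions.

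Tight junctions seal the space between neighbouring epithelial cells near their apical side. Claudins, which cross the membrane several times, form the strands of the seal, and the set of claudins a cell makes decides whether the seal blocks ions or lets some of them through. Occludin and tricellulin join the strands and the corners where cells meet, JAMs are adhesion proteins of the immunoglobulin family, and the scaffolds tie the strands to actin and to the polarity proteins. In the gut the forestomach becomes a stratified squamous barrier, while the hindstomach, small intestine and colon stay a single layer of cells that differ in how tight they are. SOX2 is a transcription factor of the stomach and oesophagus.

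The lists held 81179 (E13 intestine) to 135743 peaks (colon), and read depth is unknown. At gene ends, meaning within 1 kb of either end of a gene body, 9 to 12 of 12 epithelial marker genes had a region in each library. Over all genes 59.6% had one in E13 stomach, 56.8% in E13 intestine, 49.4% to 56.7% in the wild-type E16 libraries and 63.0% in Sox2 KO. Mesenchyme markers had one at 7 and 9 of 12 genes in the E13 libraries, 2 to 4 in the wild-type E16 libraries and 9 in Sox2 KO. Neural crest and neuron markers had one at 8 and 8 of 10 genes at E13, 3 to 5 in wild-type E16 and 9 in Sox2 KO, and Sox10, a defining marker of that lineage, had no region at all in the 4 wild-type E16 libraries. Endothelial markers had one at 2 to 4 of 10 genes and blood markers at 1 to 3 of 10. The part of such cells in the results on age and on Sox2 KO was not tested. At Sox2 itself, on chromosome 3 from 34649995 to 34652461, peaks covered 102 bp of the gene body in E13 stomach, 219 bp in forestomach, 93 bp in hindstomach, 63 bp in Sox2 KO and none in E13 intestine, E16 intestine or colon. Since the deleted stretch is not given, this does not check the knockout.

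Promoter sequences of 8 members are printed first, because the results turn on which promoters were open everywhere, in some libraries or nowhere. They are RefSeq windows of build GRCm38.p6, from 250 bp before to 50 bp after a listed transcription start, written 5′ to 3′ along the gene. Cldn10 (the inner of its 2 listed starts, chr14:118854700-118854999, plus strand), Cldn22 (chr8:47824232-47824531, plus), Magi1 (a start inside the gene body, chr6:93912914-93913213, minus), Tjp3 (chr10:81291218-81291517, minus), Cldn11 (chr3:31149670-31149969, plus) and Cldn5 (chr16:18776597-18776896, plus) had a region on the window in some libraries only. Cldn15 (chr5:136967619-136967918, plus), open nowhere, and Cldn4 (chr5:134946885-134947184, minus), open in all 7, were added for contrast after their values were seen. Capitals mark matches, on either strand, to the motifs searched: GGGCGG for the GC box, CAGGTG for the E-box, ACAAAG and as another form ACAATG for SOX factors, AAAGTCC for HNF4 factors, AGATAA for GATA factors, CCATAAA for CDX factors, TGTTTAC for FOXA factors, ACCGGTT for GRHL factors and TATAAA for the start-site box of that name.
Cldn4: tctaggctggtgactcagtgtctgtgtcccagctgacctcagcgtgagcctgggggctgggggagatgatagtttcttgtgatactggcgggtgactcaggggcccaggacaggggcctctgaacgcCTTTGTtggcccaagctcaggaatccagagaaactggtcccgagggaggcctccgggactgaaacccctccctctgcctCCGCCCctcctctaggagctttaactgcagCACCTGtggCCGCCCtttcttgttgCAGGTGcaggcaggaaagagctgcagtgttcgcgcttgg
Cldn10: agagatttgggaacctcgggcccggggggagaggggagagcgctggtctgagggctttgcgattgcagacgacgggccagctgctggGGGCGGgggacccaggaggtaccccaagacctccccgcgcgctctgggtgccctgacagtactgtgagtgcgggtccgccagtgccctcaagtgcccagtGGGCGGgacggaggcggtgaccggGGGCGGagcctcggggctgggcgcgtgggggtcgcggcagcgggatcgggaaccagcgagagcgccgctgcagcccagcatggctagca
Cldn11: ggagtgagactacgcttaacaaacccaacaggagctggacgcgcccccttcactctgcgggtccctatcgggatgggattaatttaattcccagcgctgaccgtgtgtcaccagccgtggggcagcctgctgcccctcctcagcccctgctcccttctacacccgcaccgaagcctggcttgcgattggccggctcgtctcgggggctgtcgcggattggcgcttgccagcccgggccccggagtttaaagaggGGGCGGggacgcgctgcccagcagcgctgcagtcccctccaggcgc
Cldn22: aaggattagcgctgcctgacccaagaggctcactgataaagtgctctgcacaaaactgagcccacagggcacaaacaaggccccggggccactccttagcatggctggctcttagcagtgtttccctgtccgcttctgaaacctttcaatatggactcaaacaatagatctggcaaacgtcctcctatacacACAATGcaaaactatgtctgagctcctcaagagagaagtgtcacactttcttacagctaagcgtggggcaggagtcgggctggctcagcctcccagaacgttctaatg
Cldn5: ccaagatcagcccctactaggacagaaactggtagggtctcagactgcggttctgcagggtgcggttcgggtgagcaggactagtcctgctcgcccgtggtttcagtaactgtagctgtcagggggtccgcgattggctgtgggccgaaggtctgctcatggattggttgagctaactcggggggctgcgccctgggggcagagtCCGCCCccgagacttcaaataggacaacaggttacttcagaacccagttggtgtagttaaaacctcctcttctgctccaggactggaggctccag
Magi1: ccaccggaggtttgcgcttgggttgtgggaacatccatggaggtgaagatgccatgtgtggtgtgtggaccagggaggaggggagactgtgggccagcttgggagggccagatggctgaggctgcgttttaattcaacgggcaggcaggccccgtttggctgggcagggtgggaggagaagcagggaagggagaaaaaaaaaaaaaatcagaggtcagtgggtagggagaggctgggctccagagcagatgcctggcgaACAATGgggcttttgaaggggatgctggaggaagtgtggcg
Tjp3: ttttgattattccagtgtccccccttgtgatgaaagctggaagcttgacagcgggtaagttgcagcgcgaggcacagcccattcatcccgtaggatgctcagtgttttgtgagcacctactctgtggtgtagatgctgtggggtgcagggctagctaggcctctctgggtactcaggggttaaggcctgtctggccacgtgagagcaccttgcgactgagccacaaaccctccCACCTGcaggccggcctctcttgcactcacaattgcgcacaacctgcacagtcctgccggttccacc
Cldn15: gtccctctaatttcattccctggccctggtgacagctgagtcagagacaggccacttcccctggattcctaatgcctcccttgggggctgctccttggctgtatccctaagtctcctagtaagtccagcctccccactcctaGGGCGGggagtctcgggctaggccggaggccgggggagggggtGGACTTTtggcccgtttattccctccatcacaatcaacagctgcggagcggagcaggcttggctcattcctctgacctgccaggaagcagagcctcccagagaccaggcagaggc

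The Cldn4 window, where the gene of a sealing claudin starts, held 2 E-box matches, 14 bp before and 12 bp after the start, 2 GC boxes and 1 SOX match 123 bp before it. The Cldn10 window held 3 GC boxes, at 163, 63 and 39 bp before the start. A single match stood in the windows of Cldn11 and Cldn5 (GC box), Cldn22 and Magi1 (SOX) and Tjp3 (E-box, 17 bp before the start). The Cldn15 window, for a cation channel of the small intestine, held 1 GC box and 1 HNF4 match 65 bp before the start. The GC box stood in 24 of 39 listed windows of the members (61.5%, 45.9 to 75.1) against 46.7% of 21045 windows of all genes, and the E-box in 14 (35.9%, 22.7 to 51.6) against 19.9%. The first SOX form stood in 3 (7.69%) against 16.9%, and the other in 4 (10.3%) against 10.5%. The GATA letters stood in 2 (5.13%, against 9.68%), those of HNF4 in 2 (5.13%, against 4.18%), the start-site box in 4 (10.3%, against 12.7%), and the GRHL, CDX and FOXA letters in 0 (against 1.20%, 2.28% and 3.03%). Windows of 1 gene can overlap, as the 3 of Cldn12 do, so they are not independent, and a match is a run of letters and not a shown binding site.

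The promoters of Cldn3, Cldn4 and Cldn7, claudins that seal gut epithelium, had a peak in every library, and those of the channel-forming Cldn2 and Cldn15 had none in any. Other claudins did not divide by role in this way. The channel-forming Cldn10 and the barrier claudin Cldn1 had a peak in some libraries, and Cldn14, a cation barrier, in none. Of 27 members with a listed start, 10 had a peak on a window in all 7 libraries: the claudins Cldn3, Cldn4, Cldn7 and Cldn12, occludin (Ocln), tricellulin (Marveld2), JAM-A (F11r), cingulin (Cgn), Magi3 and the polarity scaffold Pard3. That is 10 of 27 beside 38.1% of 17274 genes with a listed start, a share near the background. Another 9 members were open in some libraries (29.3% of all genes) and 8 in none (32.6%): Cldn2, Cldn6, Cldn14, Cldn15, Cldn16, Cldn17, Cldn19 and Cldn20. Members with an open window numbered 17 in each E13 library and in Sox2 KO, 15 in each E16 stomach part, 13 in E16 intestine and 11 in colon. In colon the share over all genes was the lowest too, at 43.4%, and in Sox2 KO the highest, at 64.3%. At E13 this share was 59.9% for stomach and 56.6% for intestine. Hindstomach stood at 54.1%, forestomach at 50.4% and E16 intestine at 47.3%. Apart from ties, the member counts thus ranked the libraries as all genes did.

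**Figure D1:**
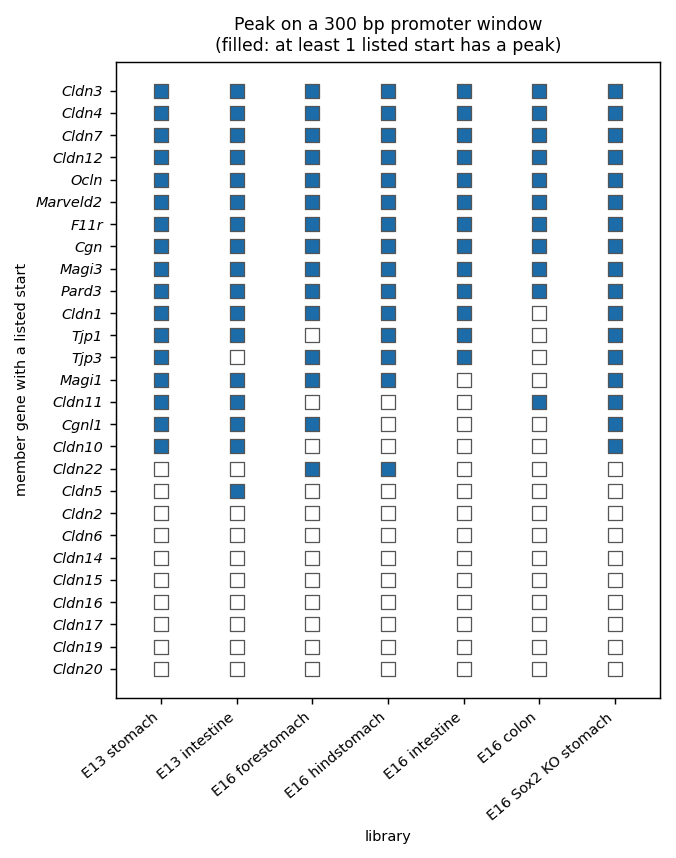
Peaks on promoter windows of the 27 members with a listed start (rows) in the 7 libraries (columns), where a filled square means that a peak overlaps at least 1 window of the gene. The upper 10 genes are filled in all 7 libraries and the lower 8 in none, and colon has the fewest filled squares, 11.

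The 9 members between these groups differed in which libraries lacked the peak. Cldn1, a barrier claudin best known from skin, was open in all libraries except colon. The window of Tjp3, which encodes the scaffold ZO-3, had no peak in E13 intestine and colon. Magi1, an adaptor of the junction, had no peak on its listed windows in E16 intestine and colon but 1 in the other 5 libraries. Those windows lie inside the gene body. The region over the higher-coordinate end of the Magi1 body (chr6:94283501-94284352) was open in all 7 libraries. The listed start of Cgnl1 (paracingulin), also inside the gene body, was open in E13 stomach, E13 intestine, forestomach and Sox2 KO. The window at the inner Cldn10 start had a peak in both E13 libraries and Sox2 KO only, and that of Cldn11, a claudin of myelin and Sertoli cells, in these and colon. Forestomach and hindstomach had a peak in the merged region over the inner Cldn10 start, but not on the window itself. Cldn22 was open in forestomach and hindstomach only, and Cldn5, the claudin of endothelial barriers, in E13 intestine only. Tjp1 (ZO-1) lacked the peak at its listed start, likewise inside the gene body, in forestomach and colon.

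How a window is read moved this grouping at its edges. When the merged region instead of the library's own peak had to overlap the window, 13 members were open in all 7 libraries, with Cldn1, Tjp1 and Cgnl1 added, and the same 8 had none. Within 500 bp of the window, 12 were open in all and 6 in none, since Cldn6 had a peak there in Sox2 KO and Cldn14 in E16 intestine. Taken over single windows and not genes, base composition went with whether a window was open in all, some or no libraries, for members as for all genes. A window open in none can belong to a gene with another window open, as at Cldn7. Median GC content was 61.7% with 21 CpG in windows open in all libraries, 58.7% with 15 in windows open in some, and 51.7% with 5.5 in windows open in none. Over all genes these medians were 62.3% with 23, 60.3% with 17 and 47.0% with 3.

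Counted at either end of the gene body, which needs no listed start, the most members with a region were found in Sox2 KO, 26 of 33 (63.0% of all genes had one there), and in E13 stomach, 23 (59.6%). Hindstomach followed with 22 (56.7%), and 21 were found in E13 intestine (56.8%), 21 in colon (49.4%) and 21 in forestomach (52.0%). The fewest, 20, were found in E16 intestine (50.3%). As shares, the members stood at 60.6% (E16 intestine) to 78.8% (Sox2 KO). In all 7 libraries 15 members had such a region (45.5%, beside 38.1% of all genes), namely Cldn1, Cldn3, Cldn4, Cldn5, Cldn7, Cldn8, Cldn12, Cldn23, Ocln, Marveld2, Marveld3, F11r, Magi1, Magi3 and Pard3. In no library was there one for 5 members (15.2%, beside 27.3%): Cldn2, a cation and water pore, Cldn15, Cldn16, Cldn17 and Cldn20. Of the members with one in 6 libraries, Jam2 lacked it in E16 intestine, Jam3 in colon, Cldn11 in forestomach and Cldn14 in E13 stomach.

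Over all places, members held 328 regions in colon, 276 in hindstomach, 273 in Sox2 KO, 254 in E16 intestine, 225 in forestomach, 198 in E13 stomach and 173 in E13 intestine. As a share of the library's regions this was lowest in E13 stomach (0.215%, 0.187 to 0.247) and highest in E16 intestine (0.269%, 0.238 to 0.304). The top place depended on how far a gene may reach: under both 10 kb rules Sox2 KO was highest, at 0.204% and 0.227%, against 0.192% and 0.208% in E16 intestine. The other libraries lay between, at 0.231% in E13 intestine, 0.246% in colon, 0.254% in hindstomach, 0.262% in Sox2 KO and 0.264% in forestomach. The median member had 13 regions, against 6 for all genes, and the range ran to 130. Of the 782 regions, 482 (61.6%) lay inside the gene body (58.4% of all assigned regions) and 212 (27.1%) lay over 10 kb from it (28.7%). The longest genes carried most: Magi1 130, Pard3 129 and Tjp1 74 regions, together 42.6% of the total, followed by Magi3 (43), Cldn14 (39), Cgnl1 (38), Cldn10 (37) and, level at 24, Cldn23 and Ocln.

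**Figure D2:**
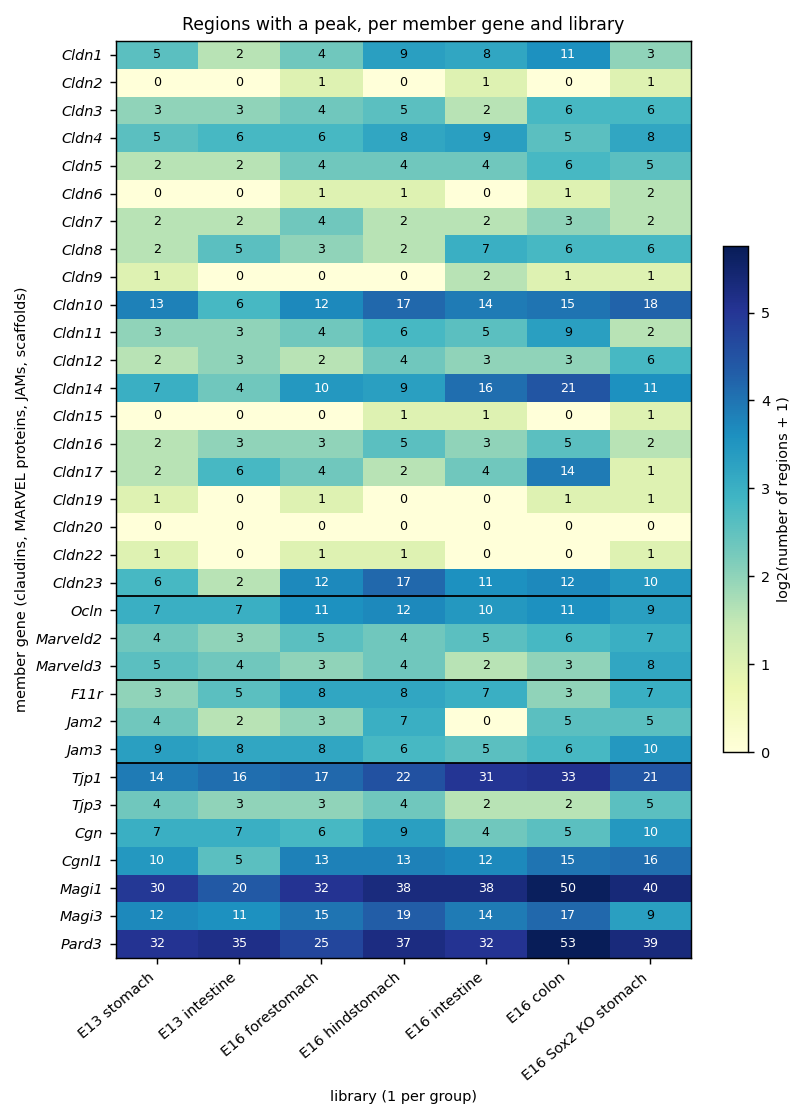
Number of regions with a peak for each of the 33 members (rows, grouped as claudins, MARVEL proteins, JAMs and scaffolds) in the 7 libraries (columns), with the colour on a log2(number of regions + 1) scale. Colon holds 119 of the claudins' regions and E13 intestine 47, Jam2 stands at 0 in E16 intestine, and the Cldn20 row is 0 throughout.

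A small set of regions was open everywhere. It held 40 of the 782 regions (5.12%, 3.78 to 6.89, beside 5.26% of all assigned regions), at 23 members, and 14 of the 40 were at gene ends. At the other end, 405 member regions were found in 1 library only (51.8%, beside 53.4% of all). Leaving out colon, the longest list, 47 regions were open in the 6 others. For this count and for that at gene ends, no share over all regions is given here. Pard3 held 4 of the 40, and Cldn4, Ocln, F11r, Tjp1, Cgn and Cgnl1 held 3 each. For F11r they were the start (chr1:171437261-171437888), a region in the gene (chr1:171441411-171441903) and one 13306 bp beyond it (chr1:171477899-171478529). For Ocln they were the start (chr13:100552236-100553002) and 2 places inside the gene (chr13:100516622-100517133 and chr13:100532837-100533396).

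Among the 20 claudins, regions per library numbered 57, 47, 76, 93, 92, 119 and 87, in the order E13 stomach, E13 intestine, forestomach, hindstomach, E16 intestine, colon and Sox2 KO. The same order holds for every run of 7 values below. Cldn3 and Cldn4, sealing claudins of most simple epithelia, lie next to each other on chromosome 5. Cldn4 had 5, 6, 6, 8, 9, 5 and 8 regions and Cldn3 had 3, 3, 4, 5, 2, 6 and 6. Of their 27 regions, 4 were open in all 7 libraries: both starts (chr5:134946857-134947293 for Cldn4 and chr5:134985633-134986589 for Cldn3), one 4058 bp from Cldn4 (chr5:134950992-134951756) and one 19195 bp from it (chr5:134966129-134966976). The stretch between the genes also held regions that told the libraries apart. One at chr5:134967270-134967818 was open in the 4 wild-type E16 libraries and in no other, and one at chr5:134970732-134970893 was open in both E13 libraries and Sox2 KO and in no wild-type E16 library. Another at chr5:134974276-134974620 was open in both E13 libraries, both E16 stomach parts and Sox2 KO but not in E16 intestine or colon.

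**Figure D3:**
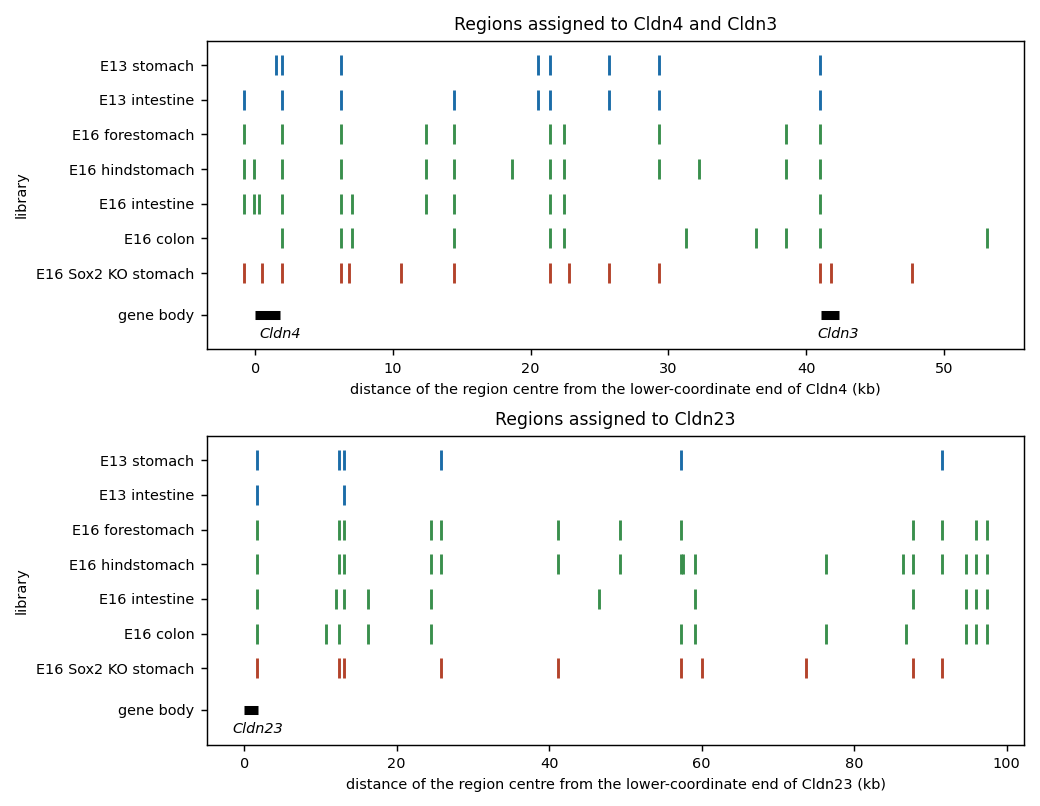
Regions assigned to Cldn4 and Cldn3 (upper panel) and to Cldn23 (lower panel), 1 row per library and 1 tick per region with a peak, by distance of the region's centre from the lower-coordinate end of Cldn4 or Cldn23 in kb; black bars are gene bodies. The ticks at both claudin starts are present in all 7 rows, and Cldn23 has 2 ticks in E13 intestine against 17 in hindstomach.

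Cldn7, a claudin of the lateral membrane of gut epithelium, had 2, 2, 4, 2, 2, 3 and 2 regions. Its start (chr11:69965114-69965694) was open in all 7, and a second gene-end region (chr11:69966565-69966921) was open at E13, in forestomach and in Sox2 KO but not in hindstomach, E16 intestine or colon. Cldn1 had 5, 2, 4, 9, 8, 11 and 3 regions, and only its start (chr16:26371400-26372014) was open in all. A region 2627 bp beyond it (chr16:26374466-26374921) was open in hindstomach, E16 intestine and colon and not in forestomach, the E13 libraries or Sox2 KO. Cldn8, which seals the distal gut and kidney tubule, had 2, 5, 3, 2, 7, 6 and 6 regions, so E13 stomach and hindstomach were lowest. A region over its end (chr16:88563107-88563758) was open in the E13 libraries, hindstomach and Sox2 KO. Cldn23, a claudin of surface epithelium, had 6, 2, 12, 17, 11, 12 and 10 regions, all but 1 of its 24 outside the gene body. Regions up to 95445 bp from the short Cldn23 body were given to it only because no other gene body was nearer.

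Of the channel-forming claudins, Cldn10, which has an anion-selective and a cation-selective form, had 13, 6, 12, 17, 14, 15 and 18 regions. The region over its inner start (chr14:118854421-118855000) was open in all libraries but E16 intestine and colon, and 5 other Cldn10 regions were open in exactly the 4 wild-type E16 libraries. Cldn2 had 3 regions, each in 1 library only (forestomach, E16 intestine and Sox2 KO). Cldn15 had a single region, inside the gene (chr5:136970927-136971062), open in hindstomach, E16 intestine and Sox2 KO. Cldn17, an anion channel, had 2, 6, 4, 2, 4, 14 and 1 regions, none nearer than 2631 bp to the gene. These lay up to 95242 bp from it, and 9 of the 19 were in colon alone. Cldn16, which serves magnesium uptake in the kidney, had 2, 3, 3, 5, 3, 5 and 2, and its partner Cldn19 had 1, 0, 1, 0, 0, 1 and 1.

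Cldn14, a cation barrier of the inner ear and kidney, had 7, 4, 10, 9, 16, 21 and 11 regions. E16 intestine and colon were highest, and 5 regions were shared by these and absent from both E16 stomach parts. A region 345 bp beyond one end of Cldn14 (chr16:93918376-93918686) was open in all libraries but E13 stomach. Cldn5 had 2, 2, 4, 4, 4, 6 and 5 regions. The window at its listed start was open only in E13 intestine, while a region inside the gene (chr16:18777111-18777752) was open in all 7. Of 10 endothelial markers, Kdr and Erg had a gene-end region in all 7 libraries, Sox17 in 4, Tek and Tie1 in 1 each, and Pecam1, Cdh5, Emcn, Egfl7 and Plvap in none. Regions of the whole list summed to between 48 and 86 in each library, and the part of endothelial cells in the Cldn5 regions was not tested. Cldn11 had 3, 3, 4, 6, 5, 9 and 2 and Cldn12 2, 3, 2, 4, 3, 3 and 6 regions. Cldn6, known from embryonic epithelia, had 0, 0, 1, 1, 0, 1 and 2 regions. Its neighbour Cldn9, known from the inner ear, had 1, 0, 0, 0, 2, 1 and 1. Cldn22 had 2 regions, and no library held both: chr8:47824351-47824661 in the E16 stomach parts and chr8:47823881-47824104 in E13 stomach and Sox2 KO.

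The MARVEL proteins had 16, 14, 19, 20, 17, 20 and 24 regions in all. Ocln had 7, 7, 11, 12, 10, 11 and 9, Marveld2 had 4, 3, 5, 4, 5, 6 and 7, and Marveld3 had 5, 4, 3, 4, 2, 3 and 8. For Ocln the E13 libraries were lowest and for Marveld3 Sox2 KO was highest. The JAMs had 16, 15, 19, 21, 12, 14 and 22. F11r stood at 3, 5, 8, 8, 7, 3 and 7, with E13 stomach and colon lowest. Jam2 (JAM-B), which endothelial and some epithelial cells make, stood at 4, 2, 3, 7, 0, 5 and 5. The region over one end of it (chr16:84774020-84774676) was open in every library except E16 intestine, which had no Jam2 region at all. Jam3 (JAM-C) stood at 9, 8, 8, 6, 5, 6 and 10, and the region over one end of it (chr9:27155050-27155560) was open in all but colon.

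The scaffolds had 109, 97, 111, 142, 133, 175 and 140 regions. Tjp1, whose product ties claudins and occludin to actin, had 14, 16, 17, 22, 31, 33 and 21, highest in E16 intestine and colon. The region over its inner listed start (chr7:65370364-65371404) was open in all 7 libraries, whereas the one at the far end of the gene body (chr7:65527169-65527833) was open in the E13 libraries and Sox2 KO and in no wild-type E16 library. Tjp3 had 4, 3, 3, 4, 2, 2 and 5 regions. Cgn, which links the junction to myosin, had 7, 7, 6, 9, 4, 5 and 10, and Cgnl1 10, 5, 13, 13, 12, 15 and 16. Magi1 had 30, 20, 32, 38, 38, 50 and 40, Magi3 12, 11, 15, 19, 14, 17 and 9, and Pard3 32, 35, 25, 37, 32, 53 and 39. For Magi1 and Pard3 colon, the longest list, was highest.

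To compare libraries pair by pair, a gene was said to lean to a library with at least 2-fold as many regions and at least 2 more. The same count over all genes with a region in either library is the background. It was made for the lists as deposited only. Member counts at equal list length or under other rules therefore have no background beside them. The 11 pairs share libraries with one another, so their counts are not independent, and lists of unequal length shift both shares. Fewer cells of a type and fewer cells with open chromatin within a type cannot be told apart in such bulk libraries. The rule is sensitive to how regions are made. Of 69 instances of a member leaning, 13 kept the lean under all 6 other ways of making regions or presence, and 9 changed sign under at least 1. Those 13 are named below as steady, and the others are given as counts of these lists.

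Between stomach and intestine at E13, 5 of 29 members leaned to stomach (13.9% of all genes did) and 2 to intestine (4.34%). The former were Cldn10 (13 regions against 6), Cgnl1 (10 against 5), Cldn23 (6 against 2), Cldn1 (5 against 2) and Jam2 (4 against 2), and the latter Cldn17 (2 against 6) and Cldn8 (2 against 5). Of the member regions, 98 were shared, 100 were in stomach only and 75 in intestine only, so that 57.1% of the unshared (49.7 to 64.2) were stomach's, beside 60.1% of all regions. At equal list length the balance of leaning members did not hold: 1 leaned to stomach and 2 to intestine with the widest peaks, and 4 each way with thinned lists. At E16, 5 of 31 members leaned to hindstomach (14.2%) and 3 to intestine (5.17%). Jam2, with 7 regions in hindstomach and 0 in intestine, was steady. Cgn (9 against 4), Cldn3 (5 against 2), Marveld3 and Tjp3 (each 4 against 2) leaned the same way, and Cldn8 (2 against 7), Cldn9 (0 against 2) and Cldn17 (2 against 4) to intestine. At equal length 4 leaned each way with the widest peaks, and 2 to hindstomach and 5 to intestine with thinned lists. Cldn8 and Cldn17 thus had more regions in intestine at both ages, by counts that rest on different libraries at each age. Neither gene was steady at either age. The Cldn17 leans at both ages and the E16 lean of Cldn8 were lost under both 10 kb rules. The E13 lean of Cldn8 was lost away from gene ends.

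Regions held by both E16 stomach parts and by neither E16 intestine nor colon numbered 55, at 20 members (7.03%, 5.44 to 9.04, beside 6.12% of all regions). Magi1 had 11 of them, Magi3 and Pard3 6 each, Tjp1 5 and Cldn23 4. The reverse, in E16 intestine and colon but neither stomach part, numbered 49, also at 20 members (6.27%, 4.77 to 8.19, beside 4.08%). Magi1 had 8 of these, Pard3 7, Tjp1 6, Cldn14 5 and Cldn1 3. All 4 wild-type E16 tissues shared 84 member regions (10.7%, 8.76 to 13.1, beside 10.2% of all).

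Forestomach and hindstomach shared 50.9% of their member regions (45.3% of all regions), more than any other of the 11 pairs compared here. Toward forestomach 2 of 31 members leaned (1.85%), Cldn7 and Cldn17 with 4 regions against 2 each. Toward hindstomach 3 leaned (13.1%): Cldn1 (4 against 9), Jam2 (3 against 7) and Cldn12 (2 against 4). At equal length the members' balance turned, with 6 to forestomach and 1 to hindstomach for the widest peaks, and 4 and 1 for thinned lists. Whether all genes turned likewise was not counted. Between E16 intestine and colon 1 member leaned to intestine (4.12%), F11r with 7 against 3, and 3 to colon (17.0%). The latter were Cldn17 (4 against 14), Jam2 (0 against 5, steady) and Cldn3 (2 against 6). Between forestomach and colon 1 leaned to forestomach (4.99%), F11r with 8 against 3, which was steady. To colon leaned 6 (23.3%): Pard3 (25 against 53), Cldn14 (10 against 21), Cldn17 (4 against 14), Cldn1 (4 against 11), Cldn11 (4 against 9) and Cldn8 (3 against 6). Colon had the longest list, and at equal length the balance with forestomach turned: 3 leaned to forestomach and 1 to colon with the widest peaks, and 7 and 1 with thinned lists.

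**Figure D4:**
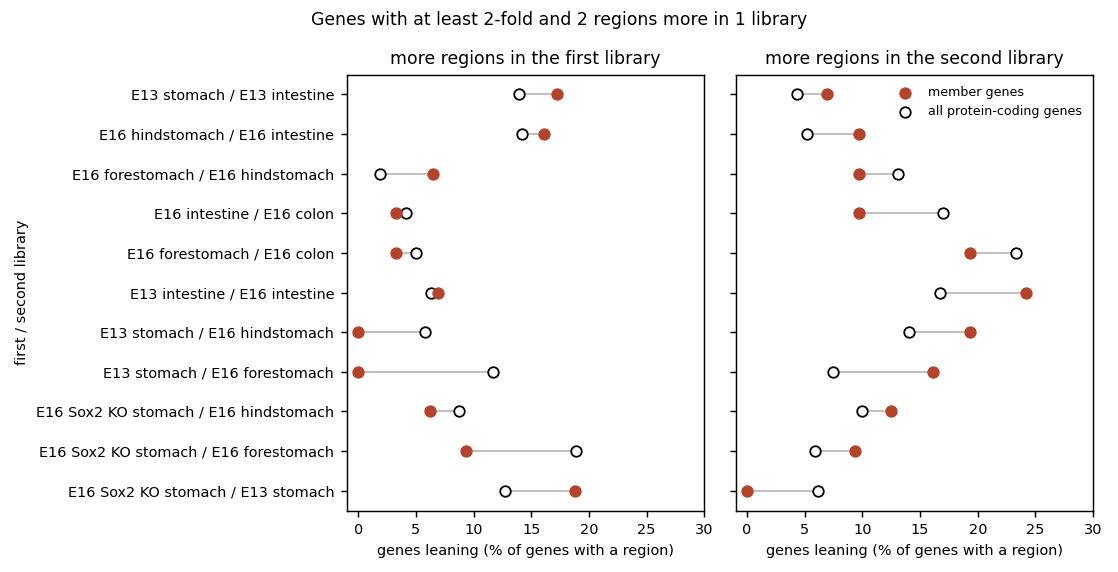
Share of genes with at least 2-fold and 2 regions more in the library named first (left panel) or second (right panel) in each of 11 pairs, in percent of genes with a region in either library, for members (filled) and all protein-coding genes (open). The points of members and of all genes lie on the same side in most pairs, and in the lists as deposited no member leans to E13 stomach against hindstomach or forestomach.

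In the lists as deposited, the median member had more regions at E16 than at E13 in each of 3 comparisons. The E16 intestine and hindstomach lists were longer than their E13 counterparts, and the forestomach list was shorter than that of E13 stomach. From E13 to E16 intestine 7 of 29 members leaned to E16 (16.7%) and 2 to E13 (6.33%). Cldn14 (4 regions, then 16), Cgnl1 (5, then 12) and Cldn1 (2, then 8) were steady, and Cldn23 (2, then 11), Cldn10 (6, then 14), Cldn5 (2, then 4) and Cldn9 (0, then 2) leaned the same way. Marveld3 (4, then 2) and Jam2 (2, then 0) leaned to E13. With the widest peaks at equal length, 4 leaned to E16 and 5 to E13, and with thinned lists 5 and 1. From E13 stomach to hindstomach 0 of 31 members leaned to E13 (5.75%) and 6 to hindstomach (14.0%): Cldn23 (6, then 17), F11r (3, then 8), Cldn11 (3, then 6), Cldn16 (2, then 5), Cldn5 and Cldn12 (each 2, then 4). From E13 stomach to forestomach 0 of 31 leaned to E13 (11.7%) and 5 to forestomach (7.43%). Of these F11r (3, then 8) was steady, and Cldn23 (6, then 12), Cldn5, Cldn7 and Cldn17 (each 2, then 4) were the others. The median member had 2 more regions in E16 than in E13 intestine, against 0 over all genes. The median member has more regions in any library (13, against 6), so these excesses are not on 1 scale.

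In all 4 wild-type E16 libraries but neither E13 library nor Sox2 KO stood 27 regions, at 13 members (3.45%, beside 3.20% of all regions), among them 5 of Cldn10 and 3 each of Cldn23, Magi1, Pard3 and Tjp1. The age groups differ in isolation as well, trypsin and sorting at E13 against peeling or EDTA at E16, so age and isolation cannot be told apart. At E13 the markers of mesenchyme and of neural crest had more gene-end regions than in wild-type E16 (7 and 9 of 12 against 2 to 4, and 8 and 8 of 10 against 3 to 5), while epithelial markers had 12 and 11 of 12 against 9 to 12. Over all genes the share with such a region was 59.6% and 56.8% at E13 against 49.4% to 56.7%.

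In the Sox2 KO stomach the promoters of Cldn3, Cldn4, Cldn7, Cldn12, Ocln, Marveld2, F11r and Cgn were open, as in every other library, and member regions were about as many (273) as in hindstomach (276). Against hindstomach 2 of 32 members leaned to Sox2 KO (8.74%) and 4 to hindstomach (10.0%). Cldn8, with 6 regions against 2, was steady, and Marveld3 had 8 against 4. The 4 were Magi3 (9 against 19), Cldn1 (3 against 9), Cldn11 (2 against 6) and Cldn16 (2 against 5). The balance turned under other rules, with 2 to Sox2 KO and 0 to hindstomach for the widest peaks at equal length, 4 and 3 for thinned lists, 4 and 2 with bodies within 10 kb, 3 and 2 with every member reached within 10 kb, and 5 and 4 where peaks had to cover 50% of a region. Against forestomach 3 of 32 leaned to Sox2 KO (18.9%): Cldn12 (6 against 2, steady), Marveld3 (8 against 3) and Cldn8 (6 against 3). To forestomach leaned 3 (5.92%): Cldn17 (1 against 4, steady), Cldn7 and Cldn11 (each 2 against 4). At equal length 2 leaned to Sox2 KO and 4 to forestomach with the widest peaks, and 1 and 4 with thinned lists, whereas with both 10 kb rules 5 leaned to Sox2 KO and 3 to forestomach, and with 50% cover 6 and 3. Cldn8, Cldn12 and Marveld3 are thus named with few regions each, and a difference of 4 regions between 2 libraries has no replicate behind it.

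Against E13 stomach, 6 of 32 members leaned to Sox2 KO (12.7%) and 0 to E13 stomach (6.14%). Cldn8 and Cldn12 (each 6 against 2) and F11r (7 against 3) were steady, and Cldn3 (6 against 3), Cldn5 (5 against 2) and Cldn6 (2 against 0) were the others. Of the unshared member regions of this pair 139 were in Sox2 KO only and 64 in E13 stomach only, 68.5% (61.8 to 74.5) beside 57.1% of all regions. The median member had 2.5 more regions in Sox2 KO, against 0 over all genes. Member regions shared with E13 stomach (39.8%) were a larger part than those shared with hindstomach (30.1%) or forestomach (27.7%), as they were over all regions (39.9%, 30.7% and 26.3%).

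Taking the E16 stomach as regions held by both forestomach and hindstomach, 70 of 169 such member regions had no peak in Sox2 KO (41.4%, 34.3 to 49.0, beside 37.4% of all). Of the 55 that intestine and colon lacked, 28 were kept in Sox2 KO (50.9%, 38.1 to 63.6, beside 59.9%). Of the 49 regions held by E16 intestine and colon but by neither stomach part, 4 were open in Sox2 KO (8.16%, 3.22 to 19.2, beside 5.67%), 1 each at Cldn10, Cldn14, Magi3 and Pard3. Sox2 KO held 137 member regions found in neither wild-type stomach part. Of these 40 were open in E13 stomach (29.2%, 22.2 to 37.3, beside 32.5%) and 12 in E16 intestine or colon (8.76%, 5.08 to 14.7, beside 8.45%). Each of these shares has an interval that holds the value over all regions. Regions of 1 gene are not independent, and Magi1 and Pard3 had 24 each of the 137.

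**Figure D5:**
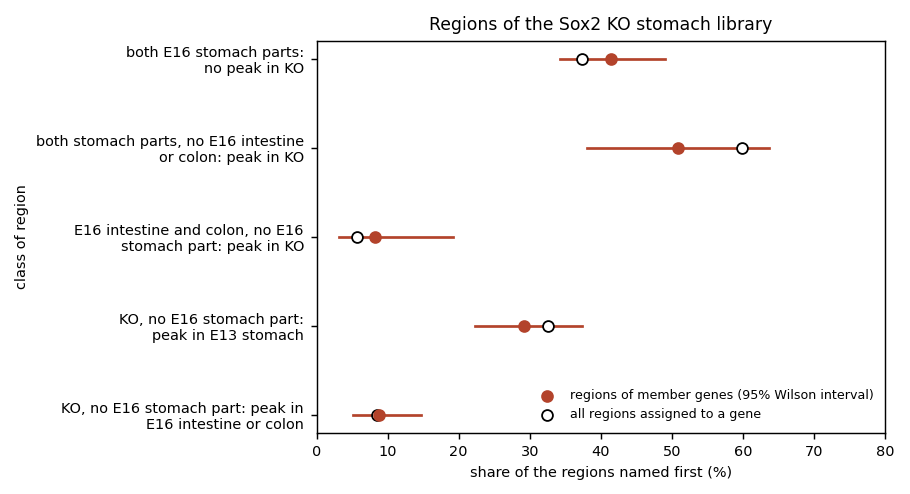
Share, in percent, of 5 classes of regions that lacked or had a peak in Sox2 KO, or of Sox2 KO regions that had a peak elsewhere, for member regions (filled, with 95% Wilson intervals for counting error) and for all assigned regions (open). In each of the 5 classes the open point lies within the members' interval.

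Regions open at E13 and in Sox2 KO but in no wild-type E16 library numbered 39, at 18 members (4.99%, beside 5.62% of all regions). Pard3 had 8, Magi1 and Tjp1 4 each, Cldn10 and Jam3 3 each, and they included the far gene end of Tjp1 and the region between Cldn4 and Cldn3 given above. In Sox2 KO, 9 of 12 mesenchyme and 9 of 10 neural crest markers had a gene-end region, against 3 and 4 of 12 and 4 and 5 of 10 in forestomach and hindstomach. Over all genes the share with such a region was 63.0% in Sox2 KO, 52.0% in forestomach and 56.7% in hindstomach. Regions of the mesenchyme markers summed to 87 in Sox2 KO, 64 and 50 at E13 and 58 to 77 in wild-type E16. Single genes of the list went both ways: Twist1 had 3 in Sox2 KO, 1 in forestomach and 0 in hindstomach, while Pdgfra had 4 against 10 and 8, and Acta2 2 against 4 in each. Regions of the epithelial markers summed to 150 in Sox2 KO, 109 in forestomach and 119 in hindstomach. Sox10 had 2 regions in Sox2 KO, 3 and 1 in the E13 libraries and 0 in the 4 others. The part of these cells in the results was not tested. The genotype, the unknown part of the stomach and the unknown isolation of the Sox2 KO library cannot be told apart.

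Of 24 other tight junction genes, 4 leaned to stomach and 0 to intestine in each comparison of these organs, at E13 and at E16 (hindstomach). Over all genes 13.9% and 14.2% leaned to stomach, so 4 of 24 is near the background. To intestine leaned 4.34% and 5.17% of all genes. At E13 the 4 included Amotl1 (12 regions against 5), Amot (9 against 4) and Arhgef2 (8 against 4). At E16 they included Amotl2 (18 against 9), Ildr2 (7 against 2) and Pard6g (6 against 3). These counts are of the lists as deposited, and were not made at equal length. Toward hindstomach against forestomach leaned 2 (13.1% of all genes), toward colon against E16 intestine 2 (17.0%) and toward colon against forestomach 2 (23.3%). In each, 0 leaned the other way (1.85%, 4.12% and 4.99% of all genes). Between E13 and E16 intestine 2 leaned each way (6.33% of all genes to E13 and 16.7% to E16). Between E13 stomach and hindstomach 2 leaned to hindstomach (14.0%), and between E13 stomach and forestomach 1 to E13 (11.7%). Toward Sox2 KO leaned 1 against hindstomach (8.74% of all genes), 3 against forestomach (18.9%) and 2 against E13 stomach (12.7%). Away from it leaned 1 to hindstomach (10.0%), 0 to forestomach (5.92%) and 0 to E13 stomach (6.14%). Cldn18, the claudin of the stomach lining, had 5, 4, 8, 13, 8, 6 and 10 regions, highest in hindstomach, with a gene-end region only in forestomach, hindstomach and Sox2 KO.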

How the data were processed

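ATAC-seq peak lists of 7 mouse libraries, 1 per group, were analysed. Each deposited file holds the chromosome, start and end of each peak, values whose unit is other than a signal, with no score, p-value or read count. Per the submitters' processing notes, cutadapt, Bowtie2 and MACS2 were used with mouse build GRCm38/mm10. Versions, the peak threshold and any pooling were not given in the sources used here, nor was whether positions start at 0 or 1, so they are printed as deposited. Read depth cannot be had from such lists.

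After other chromosomes than the 19 autosomes and X were dropped, peaks that overlapped by at least 1 bp were merged. A region went to the closest body of a protein-coding gene (RefSeq, GRCm38.p6; the shorter body at a tie), if one lay within 100 kb. The gene table has no strand, so a gene end is either end of the body. Promoter windows are RefSeq's and cover 27 of the members; Cldn8, Cldn9, Cldn23, Marveld3, Jam2 and Jam3 were not among them. No test across groups was possible. The members and the lists of other junction and marker genes were chosen with earlier results of these data known. Members named in a pair are those leaning by the 2-fold rule; 1 gene is not reported here. Alternatives were lists thinned or cut to equal length (81179 peaks), 10 kb gene assignment, presence only where peaks cover 50% of a region, regions away from gene ends, a 0.5 kb gene-end window and folds of 1.5 and 3; readings of promoter windows and leaving out colon were added after seeing the data. Region merging and gene assignment were tested on simulated data. Python 3.11.15, numpy 2.4.6, pandas 2.3.3 and scipy 1.17.1 were used.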

Additional observations from a re-analysis of the deposited data

How the results depend on the processing

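The share of a library's regions held by members depended on how far a gene may reach. With bodies within 10 kb it was 0.165, 0.179, 0.185, 0.173, 0.192, 0.172 and 0.204%, and with every member reached within 10 kb it was 0.182, 0.197, 0.204, 0.190, 0.208, 0.183 and 0.227%, in the order E13 stomach, E13 intestine, forestomach, hindstomach, E16 intestine, colon and Sox2 KO. The share of member regions open in all 7 libraries was 1.32% with lists thinned to equal length, 0.895% where peaks had to cover 50% of a region, and 3.59% away from gene ends. Members with a gene-end region then numbered 12 in E16 intestine and 13 in colon with 50% cover, and 10 in colon with thinned lists. Counts of leaning members moved most, and the shares of all genes were not recounted under the alternatives. Over 8 alternatives they ran, toward the first and the second library of each pair, from 1 to 9 and 1 to 4 for E13 stomach and E13 intestine, 1 to 7 and 1 to 5 for hindstomach and E16 intestine, 0 to 6 and 0 to 6 for forestomach and hindstomach, 0 to 2 and 3 to 7 for E16 intestine and colon. They ran from 0 to 7 and 1 to 12 for forestomach and colon, 1 to 5 and 4 to 12 for E13 intestine and E16 intestine, 0 to 1 and 0 to 13 for E13 stomach and hindstomach, 0 to 1 and 0 to 6 for E13 stomach and forestomach. With Sox2 KO they ran from 1 to 5 and 0 to 5 for Sox2 KO and hindstomach, 1 to 9 and 1 to 4 for Sox2 KO and forestomach, 3 to 13 and 0 to 2 for Sox2 KO and E13 stomach. Of 176 such counts 85 moved by over 1.5 times, or to or from 0. The 8 alternatives include folds of 1.5 and 3, which by their rule can only raise or only lower a count. Away from gene ends, 11 members leaned to E16 against E13 intestine. The cause was not tested.

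Some single genes changed direction, given as regions in the first library minus the second. Between hindstomach and E16 intestine these were Cldn3 (-1, thinned lists) and Marveld3 (-1, widest peaks at equal length), between E16 intestine and colon Cldn3 (1, thinned), and between forestomach and colon Cldn11 (2, thinned). Between E13 and E16 intestine they were Cldn5 (1 with both 10 kb rules) and Marveld3 (-1, 50% cover). Between E13 stomach and hindstomach they were Cldn11 (1, widest peaks) and Cldn16 (1, both 10 kb rules), and between Sox2 KO and hindstomach Cldn16 (1, both 10 kb rules). No paired analysis was possible because each group has 1 library. Without depth or peak strength, a missing peak does not show closed chromatin.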
